A study of Homo sapiens with 6 samples.

Results

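Lipoprotein lipase (LPL) and 9 genes of lipid uptake, transport and storage that act beside it were followed in MDA-MB-231 cells with stable knockdown of HMGA2. The 10 genes were picked by symbol from a table of 61806 genes. They are LPL, its secreted inhibitor ANGPTL4, the very low density lipoprotein receptor VLDLR, the fatty acid handling genes FABP5, ACSL1, CPT1A and PLIN2, and the nuclear receptors PPARA, PPARD and PPARG. LPL was chosen by its measured values, because it was higher in both knockdown lines than in the control line. Its levels against the control are therefore given as a description, with no test. The other 9 genes were also chosen with earlier results of these data known.

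The samples were 6 RNA-seq libraries from MDA-MB-231 cells, an established line of triple-negative breast cancer, with 2 libraries per line. The shNC line carried a control shRNA, the shHMGA2-1 line an shRNA against HMGA2, and the shHMGA2-2 line another shRNA against HMGA2. The shRNAs were delivered with lentivirus, cells were selected with puromycin, and a stable line was grown from a single clone, so that the effect of an shRNA and the difference between clones cannot be told apart. The labels do not say whether the 2 libraries of a line came from separate cultures, so p-values measure only the spread between libraries, which may be technical. The library names read WT for the samples titled shNC and SH2 for those titled shHMGA2-1, and the titles were followed.

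LPL is an enzyme that cleaves triglycerides in circulating lipoproteins and releases fatty acids for the cells nearby. ANGPTL4 inactivates LPL, and VLDLR binds triglyceride-rich lipoproteins and brings them into cells, partly with LPL as a bridge. Inside the cell, FABP5 carries fatty acids, ACSL1 couples them to coenzyme A, CPT1A passes them to mitochondria for oxidation, and PLIN2 coats the droplets in which they are stored. The PPARs are nuclear receptors that are activated by fatty acids, pair with RXR receptors on DNA, and are known to regulate many of these genes, including LPL, ANGPTL4, CPT1A and PLIN2.

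Library totals ranged from 16461178 to 17167293 counts, and the 2 libraries of each line differed by more than sampling noise (chi-square per degree of freedom 2.06 to 6.8). HMGA2, the targeted gene, had 2126 and 2161 counts in the control libraries, 858 and 989 in those of shHMGA2-1, and 435 and 482 in those of shHMGA2-2, in the direction of the labels. All 9 genes listed as present in MDA-MB-231 were detected in each library, and of 8 listed as low or absent, CDKN2A and CDKN2B had no count. ERBB2 of the same list had 1126 to 1909 counts in any library. GATA3 had 38 to 58 in shNC and shHMGA2-1 and 262 and 318 in shHMGA2-2, so that both go against low levels. FOXA1, from this list too, moved opposite to GATA3 in shHMGA2-2, where it fell to 5 and 1. Its control libraries held 110 and 94, above GATA3 there, while the shHMGA2-1 libraries held 64 and 68. The 12 adipocyte markers summed to 158 to 160 counts in shNC, 153 to 220 in shHMGA2-1 and 172 to 216 in shHMGA2-2, with ADIPOQ, ADRB3 and RETN at 0 in each library. Most of this sum was LIPE (110 to 156 counts) and CFD (21 to 91). PLIN1 had 2 to 14 counts, and 9 of the 12 had at most 3 in any library. The 12 macrophage and leukocyte markers summed to 202 to 227, 42 to 59 and 17 to 28 counts, with TYROBP and MARCO at 0. LAPTM5 alone made up 178 and 160 of the shNC counts, 31 and 19 in shHMGA2-1 and 13 and 7 in shHMGA2-2, while PTPRC, CD163, AIF1 and LYZ had at most 2 in any library. The marker sum was thus lower in both knockdown lines, and its part in the results was not tested. In bulk RNA, fewer cells that express a gene and less RNA per cell cannot be told apart.

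LPL was not detected in the control line and was present in both knockdown lines. LPL (ENSG00000175445, plus strand, chr8:19901717-19967259 in GRCh38) had 0 counts in both shNC libraries, 24 in each shHMGA2-1 library, and 74 and 67 in the shHMGA2-2 libraries. The lines did not overlap: each shHMGA2-2 library was above each shHMGA2-1 library, and both were above shNC. On the CPM scale (counts normalised to library size, with TMM scaling), the level was 1.40 ± 0.0217 (SD, n = 2) in shHMGA2-1 and 4.11 ± 0.375 in shHMGA2-2. A count of 0 allows up to 3 counts per library, or 0.185 CPM. The mean LPL level was 7.58-fold that floor in shHMGA2-1 and 22.2-fold that floor in shHMGA2-2. The floor covers counting error in shNC only, and the knockdown means enter without their own error. The contrast between the knockdown lines did not enter the choice of LPL. LPL was 2.93-fold higher in shHMGA2-2 than in shHMGA2-1, a log2 difference of 1.55 ± 0.311 (SE), and passed edgeR's quasi-likelihood test with an adjusted p of 0.000212 (Benjamini-Hochberg over 16110 genes).

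**Figure D1:**
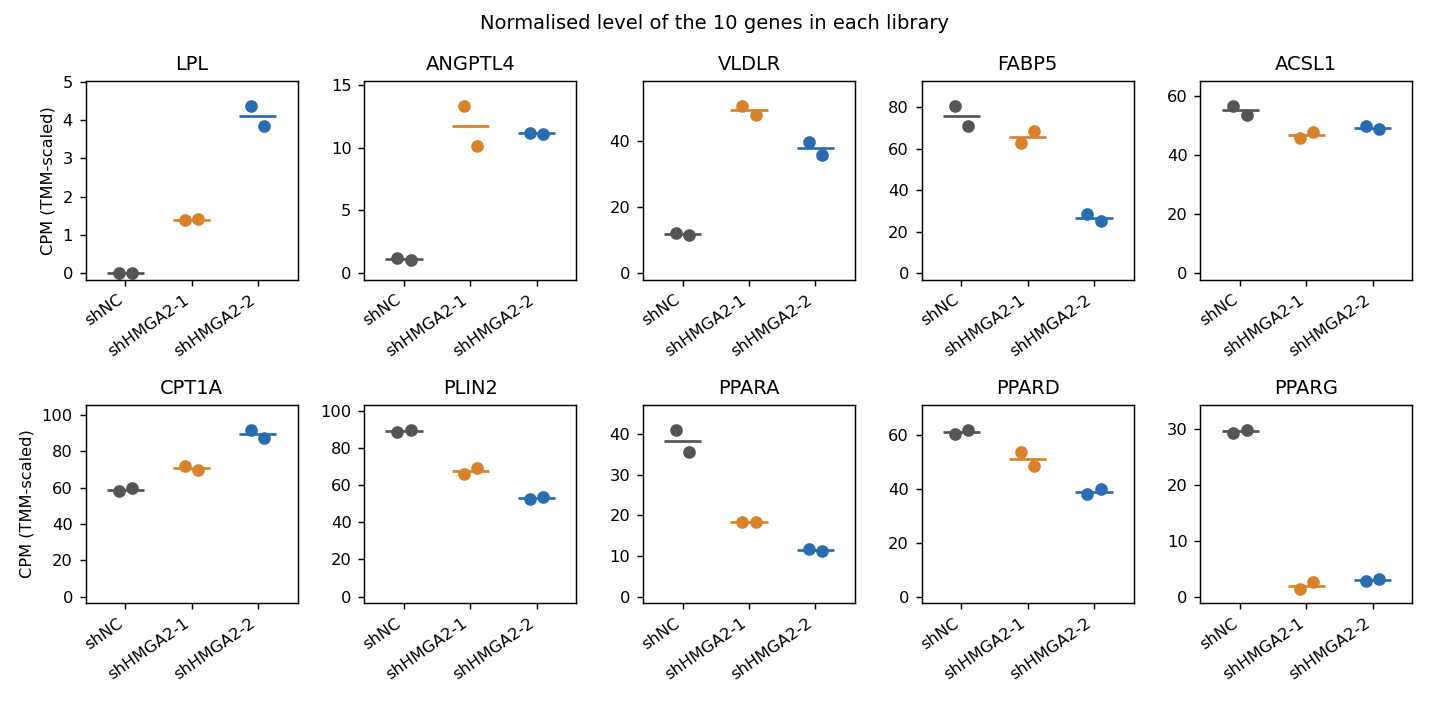
Level of each of the 10 genes (CPM with TMM-scaled library sizes, linear axes from 0) in the 6 libraries. Points are libraries and lines are means of 2. LPL is at 0 in both shNC libraries, and ANGPTL4, VLDLR and CPT1A are higher in all 4 knockdown libraries than in shNC. FABP5, ACSL1, PLIN2, PPARA, PPARD and PPARG are lower in all 4, though not each of these gaps passed the test.

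The 5 genes whose pattern over the 6 libraries was most like that of LPL were BTG2, LINC00654, WNK2, CAMSAP3 and GNAZ. Likeness was the root mean square distance of centred log2 CPM over the 6 libraries, which was 0.279 for BTG2, 0.301 for LINC00654 and 0.487 for WNK2. BTG2 had 1 count in each shNC library, 68 and 55 in shHMGA2-1 and 139 and 140 in shHMGA2-2. LINC00654, like LPL, had 0 counts in both shNC libraries, with 40 in each shHMGA2-1 library and 105 and 92 in shHMGA2-2. CAMSAP3 (distance 0.505) reached 137 and 172 counts in shHMGA2-2, and GNAZ (0.526) 102 and 90.

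**Figure D2:**
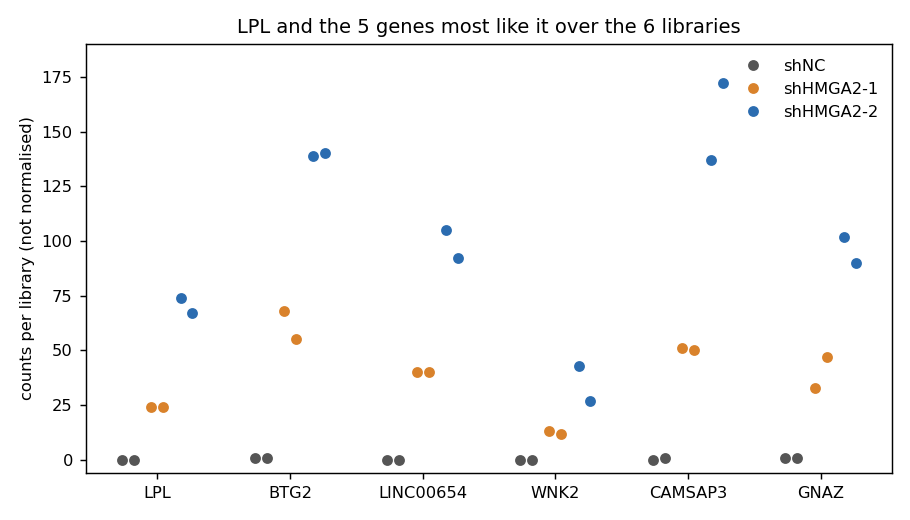
Counts per library (not normalised, linear axis) of LPL and the 5 genes with the smallest distance from it. In each gene the shNC libraries hold at most 1 count, and both shHMGA2-2 libraries lie above both shHMGA2-1 libraries.

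Genes near LPL did not share its pattern. INTS10, a subunit of the Integrator complex that lies 49.6 kb before LPL, had 967 and 1071 counts in the control libraries, 1050 and 1066 in those of shHMGA2-1, and 1574 and 1586 in those of shHMGA2-2. Only shHMGA2-2 stood above the other lines, with a log2 fold change against shNC of 0.55 (edgeR adjusted p = 3.01e-06). CSGALNACT1 (41 to 47 counts in shNC) and LZTS1 (1 to 8 counts in any library) were low throughout, and SLC18A1 had no count in any library. ATP6V1B2, a subunit of the vacuolar proton pump, was slightly lower, with log2 fold changes of -0.27 in shHMGA2-1 (edgeR adjusted p = 0.00764) and -0.18 in shHMGA2-2 (0.0407). Both calls for ATP6V1B2 were lost with limma on log2(FPKM + 1), with adjusted p-values of 0.0672 in shHMGA2-1 and 0.44 in shHMGA2-2. The call in shHMGA2-2 was also lost with DESeq2 (0.058) and with upper quartile scaling in edgeR (0.452). Without 1 of the shNC or shHMGA2-2 libraries, the log2 fold change in shHMGA2-2 ran from -0.24 to -0.133. Without shNC replicate 2, that in shHMGA2-1 was -0.233.

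ANGPTL4, the secreted inhibitor of LPL, rose about 10-fold in both lines. ANGPTL4 (ENSG00000167772, plus strand of chromosome 19) had 20 and 17 counts in the control libraries, 231 and 172 in those of shHMGA2-1, and 189 and 194 in those of shHMGA2-2. All 4 knockdown libraries lay well above both shNC libraries, while the knockdown lines overlapped. The fold change against shNC was 10.2 in shHMGA2-1 (log2 3.36 ± 0.231 SE, edgeR adjusted p = 3.35e-11) and 9.73 in shHMGA2-2 (log2 3.28 ± 0.232, adjusted p = 1.09e-11). The log2 difference between the knockdown lines was -0.07, with a 95% confidence interval from -0.40 to 0.25 (edgeR adjusted p = 0.725).

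VLDLR, the lipoprotein receptor, rose in both lines. VLDLR (ENSG00000147852, plus strand of chromosome 9) had 195 and 186 counts in the control libraries, 880 and 816 in those of shHMGA2-1, and 674 and 627 in those of shHMGA2-2. The 3 lines did not overlap, with shHMGA2-1 highest, which is the reverse of the order of LPL. The rise was 4.21-fold in shHMGA2-1 (log2 2.08 ± 0.109 SE, edgeR adjusted p = 3.48e-13) and 3.23-fold in shHMGA2-2 (log2 1.69 ± 0.111, adjusted p = 2.76e-12). Between the knockdown lines the log2 difference was -0.38 (edgeR adjusted p = 0.00168). That call was lost with limma on log2(FPKM + 1), with an adjusted p of 0.057, and in edgeR without shHMGA2-2 replicate 2 (0.0511). An antisense gene, VLDLR-AS1, had 3 to 14 counts in any library. Of the neighbours, SMARCA2, a chromatin remodelling ATPase, had log2 fold changes of 0.48 (adjusted p = 2.03e-05) and 0.18 (0.0418), and PUM3, an RNA-binding protein, 0.07 and 0.09 (0.547 and 0.337). The second SMARCA2 call was lost without either shNC library (replicate 1, 0.193; replicate 2, 0.182) and without shHMGA2-2 replicate 1 (0.337). KCNV2 had 1 to 7 counts in any library.

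FABP5, the fatty acid carrier, fell in shHMGA2-2, and its change in shHMGA2-1 did not pass the test. FABP5 (ENSG00000164687, plus strand of chromosome 8) had 1311 and 1151 counts in the control libraries, 1087 and 1162 in those of shHMGA2-1, and 482 and 436 in those of shHMGA2-2. The shNC and shHMGA2-1 libraries overlapped in counts, though not in CPM, and both shHMGA2-2 libraries were far below. FABP5 fell 2.83-fold in shHMGA2-2 (edgeR adjusted p = 2.53e-12, SE of the log2 change 0.098). In shHMGA2-1 the log2 fold change was -0.21 (adjusted p = 0.084), which passed only without shHMGA2-1 replicate 2 (0.0177). FABP5 has near-identical copies: 15 pseudogenes of it are in the table, 6 with any count and 71 to 224 counts in all per library, so its value is uncertain by the reads shared with them.

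ACSL1, which activates fatty acids, was nearly flat. ACSL1 (ENSG00000151726, minus strand of chromosome 4) had 919 and 871 counts in the control libraries, 793 and 813 in those of shHMGA2-1, and 840 and 851 in those of shHMGA2-2. Both knockdown lines were slightly below shNC and close to each other. The log2 fold change was -0.24 in shHMGA2-1 (edgeR adjusted p = 0.0414) and -0.16 in shHMGA2-2 (adjusted p = 0.115, 95% confidence interval -0.34 to 0.02). The first was lost without any library but shHMGA2-1 replicate 2 (adjusted p from 0.0645 without shHMGA2-2 replicate 2 to 0.273 without shNC replicate 1) and with DESeq2 (0.063). The second passed without either shHMGA2-1 library (0.0488 without replicate 1, 0.0496 without replicate 2).

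CPT1A, the mitochondrial entry enzyme, rose by less than 2-fold in both lines. CPT1A (ENSG00000110090, minus strand of chromosome 11) had 943 and 972 counts in the control libraries, 1246 and 1186 in those of shHMGA2-1, and 1553 and 1522 in those of shHMGA2-2. The lines did not overlap and shHMGA2-2 was highest, as for LPL. The rise was 1.20-fold in shHMGA2-1 (edgeR adjusted p = 0.0129) and 1.52-fold in shHMGA2-2 (adjusted p = 5.85e-07), and the knockdown lines differed by 0.34 on the log2 scale (0.000924). The call in shHMGA2-1 was lost without shNC replicate 1 (0.154) or 2 (0.0838).

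PLIN2, the lipid droplet coat protein, fell in both lines. PLIN2 (ENSG00000147872, minus strand of chromosome 9) had 1439 and 1457 counts in the control libraries, 1139 and 1170 in those of shHMGA2-1, and 886 and 934 in those of shHMGA2-2. Again the lines did not overlap, and shHMGA2-2 was lowest. The level was 1.32-fold lower in shHMGA2-1 (log2 -0.41 ± 0.079 SE, edgeR adjusted p = 0.000296) and 1.68-fold lower in shHMGA2-2 (log2 -0.75 ± 0.081, adjusted p = 2.06e-08). Between the knockdown lines the log2 difference was -0.35 (adjusted p = 0.00101).

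All 3 PPAR genes fell in both lines, PPARG by far the most. PPARG, known as the main regulator of fat cell formation, had 475 and 484 counts in the control libraries, 25 and 43 in those of shHMGA2-1, and 46 and 54 in those of shHMGA2-2. Each knockdown library was far below both shNC libraries. It was 14.8-fold lower in shHMGA2-1 (log2 -3.89 ± 0.185 SE, edgeR adjusted p = 4.27e-14) and 10.1-fold lower in shHMGA2-2 (log2 -3.34 ± 0.173, adjusted p = 2.86e-14). The knockdown lines did not overlap, but their log2 difference of 0.55 (95% confidence interval 0.03 to 1.08) missed the threshold (adjusted p = 0.075). It passed without shHMGA2-1 replicate 2, at 1.01 (0.00828).

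PPARA, known for its control of fatty acid oxidation, had 667 and 577 counts in the control libraries, 319 and 311 in those of shHMGA2-1, and 199 and 194 in those of shHMGA2-2. The lines did not overlap. It was 2.08-fold lower in shHMGA2-1 (edgeR adjusted p = 4.45e-08) and 3.34-fold lower in shHMGA2-2 (adjusted p = 4.28e-12), with a log2 difference of -0.68 between them (6.25e-05). PPARD, the most widely expressed of the family, had 977 and 1005 counts in the control libraries, 930 and 819 in those of shHMGA2-1, and 643 and 695 in those of shHMGA2-2. Both knockdown lines were below shNC and shHMGA2-2 was lowest. PPARD was 1.57-fold lower in shHMGA2-2 (log2 -0.65 ± 0.091 SE, edgeR adjusted p = 1.32e-06) and 1.20-fold lower in shHMGA2-1 (log2 -0.26 ± 0.089, adjusted p = 0.0264). The latter call was lost without shNC replicate 1 (0.112) or 2 (0.193), without shHMGA2-1 replicate 2 (0.0947) and with upper quartile scaling (0.0958).

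The make-up of the PPAR family can be read per length, in FPKM, the counts divided by exonic length and library total. That length is of the whole gene and not of a transcript, 4457 bases for PPARD, 13216 for PPARA and 11981 for PPARG. Shares between genes depend on it. In CPM, which is not divided by length, PPARD, PPARA and PPARG were at 61.0, 38.3 and 29.5 in shNC. The summed level of the 3 receptors was 18.22 and 18.23 FPKM in the control libraries, 13.68 and 12.31 in those of shHMGA2-1, and 9.90 and 10.55 in those of shHMGA2-2. PPARD made up most of it in each library. Its share was 70.9% and 72.8% in shNC, against 88.8% and 87.2% in shHMGA2-1 and 88.5% and 89.1% in shHMGA2-2. The share of PPARG was 12.8% and 13.1% in shNC and at most 2.56% in any knockdown library, and that of PPARA ran from 16.3% and 14.1% in shNC to between 8.34% and 11.1% in the knockdown libraries. No knockdown library overlapped shNC in any of these shares.

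**Figure D3:**
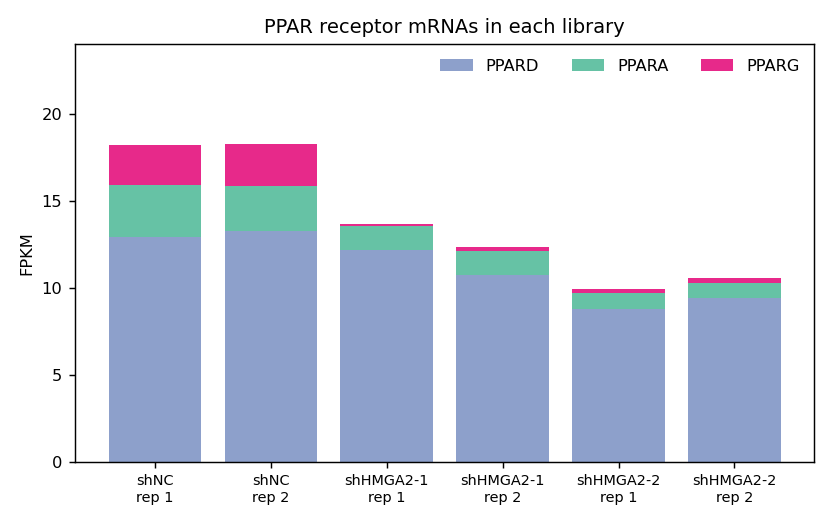
FPKM of PPARD, PPARA and PPARG stacked for each of the 6 libraries (linear axis from 0). The stack is 18.22 and 18.23 FPKM high in shNC and lower in each knockdown library, and the PPARG part nearly disappears there.

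The DNA just before RefSeq starts of ANGPTL4 and PPARG is shown because these genes had the largest rise and the largest fall of the 9 tested genes in both lines. PPARs with RXR are known to bind a pair of AGGTCA elements set 1 base apart, written AGGTCANAGGTCA. The closest match to these letters on either strand is in capitals. Sequences are from RefSeq (GRCh38.p14), 5′ to 3′ on the plus strand, and cover the 240 bases that end 11 bases before the RefSeq start. The windows are chr19:8363905-8364144 for ANGPTL4 and chr3:12287118-12287357 for PPARG, whose first start of several was taken. In the annotation of the counts ANGPTL4 starts at 8363289, so that its window lies within that gene.
ANGPTL4: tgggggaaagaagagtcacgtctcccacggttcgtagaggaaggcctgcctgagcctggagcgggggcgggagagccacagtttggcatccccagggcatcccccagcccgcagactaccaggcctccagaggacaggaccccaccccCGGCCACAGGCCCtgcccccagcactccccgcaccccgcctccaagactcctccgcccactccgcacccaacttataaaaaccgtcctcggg
PPARG: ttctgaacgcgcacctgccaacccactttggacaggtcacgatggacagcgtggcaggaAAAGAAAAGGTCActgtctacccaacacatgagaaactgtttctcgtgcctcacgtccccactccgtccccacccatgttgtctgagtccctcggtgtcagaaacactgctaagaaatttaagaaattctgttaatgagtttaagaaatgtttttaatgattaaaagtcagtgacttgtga
Both matches differed from the motif at 4 of its 12 scored bases, and the PPARG window held 2 exact AGGTCA elements, counted on both strands. Windows for 8 of the 10 genes were searched, 18 in all, since several genes have more than 1 start. LPL and FABP5 had no window and were not searched. An exact element was found in 2 of the 18, both of PPARG, and 4 of the 18 (2 of ACSL1 and 2 of PPARG) held the motif with at most 3 mismatches, where the 2 PPARG windows overlap and hold the same match. Of all 35116 windows of this length, 11.69% held an exact element and 17.35% the motif with at most 3 mismatches. A match describes letters and not binding.

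Ordered by FPKM, FABP5 was highest and LPL lowest in shNC, at 38.1 ± 3.51 (SD, n = 2) and 0. Between them came PLIN2 (17.0), PPARD (13.1), ACSL1 (8.60) and CPT1A (8.58), PPARA (2.77), PPARG (2.36), VLDLR (0.680) and ANGPTL4 (0.440). ACSL1 and CPT1A overlapped in shNC, and no other neighbours in the order did. In FPKM, ANGPTL4 and VLDLR stood above PPARA and PPARG in both knockdown lines and below them in shNC. ANGPTL4 was at 4.75 ± 0.976 FPKM in shHMGA2-1 and 4.68 ± 0.0636 in shHMGA2-2, and VLDLR at 3.00 ± 0.156 and 2.38 ± 0.134. In shHMGA2-2, CPT1A (14.2) reached FABP5 (14.6), with overlapping libraries, and LPL (1.03 ± 0.0778) was above PPARA (0.895 ± 0.0212) and PPARG (0.25 ± 0.0283). In shHMGA2-1, PPARD (11.4) and CPT1A (10.8) overlapped, and LPL (0.340) was above PPARG alone (0.165 ± 0.0636). This order depends on the exonic lengths. In CPM, ANGPTL4 was below PPARA in shHMGA2-1 (11.73 against 18.36) and overlapped it in shHMGA2-2 (11.15 against 11.44). LPL was in CPM below PPARG in shHMGA2-1 (1.40 against 1.99) and below PPARA in shHMGA2-2 (4.11 against 11.44). VLDLR was above PPARA and PPARG in both knockdown lines in CPM too, as was LPL above PPARG in shHMGA2-2.

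Counted over the 9 genes other than LPL, 3 rose (VLDLR, ANGPTL4 and CPT1A) and 5 fell in shHMGA2-1 against shNC, with FABP5 not called. Over all 16110 genes tested, 15.8% rose and 17.6% fell in this comparison, and 8.49% were called with a change of at least 2-fold, against 4 of the 9 (VLDLR, ANGPTL4, PPARA and PPARG). The median log2 fold change was -0.24 for the 9 and 0.01 for all genes. The 9 were chosen with earlier results of these data known, so that in each comparison their share is a description only. Without shNC replicate 1 or without shNC replicate 2, 5 of the 9 were called in place of 8. With upper quartile scaling, 58.8% of called genes were higher in place of 47.2%, and 6 of the 9 were called.

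In shHMGA2-2 against shNC, 3 of the 9 rose and 5 fell, with ACSL1 not called, where 29.5% of all genes rose and 29.2% fell. With upper quartile scaling, 59.9% of called genes were higher in place of 50.3%. The genes called at 2-fold or more were 5 of the 9, the same 4 and FABP5, against 21.3% of all genes. The median was -0.65 for the 9 and 0.03 for all genes. The comparisons of the lines with shNC share the control libraries, so that they are not independent of each other.

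Between the knockdown lines, 2 of the 10 genes, LPL and CPT1A, were higher in shHMGA2-2 and 5 were lower (VLDLR, PPARA, PPARD, FABP5 and PLIN2), where 24.5% of all genes were higher and 25.7% lower. LPL and FABP5 differed by at least 2-fold, against 15.1% of all genes. PPARG, ANGPTL4 and ACSL1 were not called. The median was -0.21 for the 10 and -0.002 for all genes.

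Where the 4 knockdown libraries were taken as a single group, the difference between the shRNA lines counted as error and fewer genes passed. ANGPTL4 (9.99-fold, edgeR adjusted p = 0.0029) and VLDLR (3.72-fold, 0.00675) rose, and PPARG (12.0-fold lower, 0.00392) and PPARA (2.57-fold lower, 0.0332) fell, among the 9. Over all genes 2.34% rose, 2.92% fell, and 3.09% were called at 2-fold or more. PLIN2 was 1.48-fold lower (0.0715) and passed with DESeq2 (0.00764), and CPT1A, PPARD, ACSL1 and FABP5 had adjusted p-values of 0.13, 0.154, 0.223 and 0.331. Without shNC replicate 1 or 2, none of the 9 passed edgeR's test (848 genes called in all fell to 4), and the 4 genes then had adjusted p-values between 0.082 and 0.278 with the same directions. The PPARA call was also lost without shHMGA2-1 replicate 1 (0.0508), shHMGA2-2 replicate 1 (0.0711) or shHMGA2-2 replicate 2 (0.0621). With upper quartile scaling, 55.7% of called genes were higher in place of 44.5%.

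**Figure D4:**
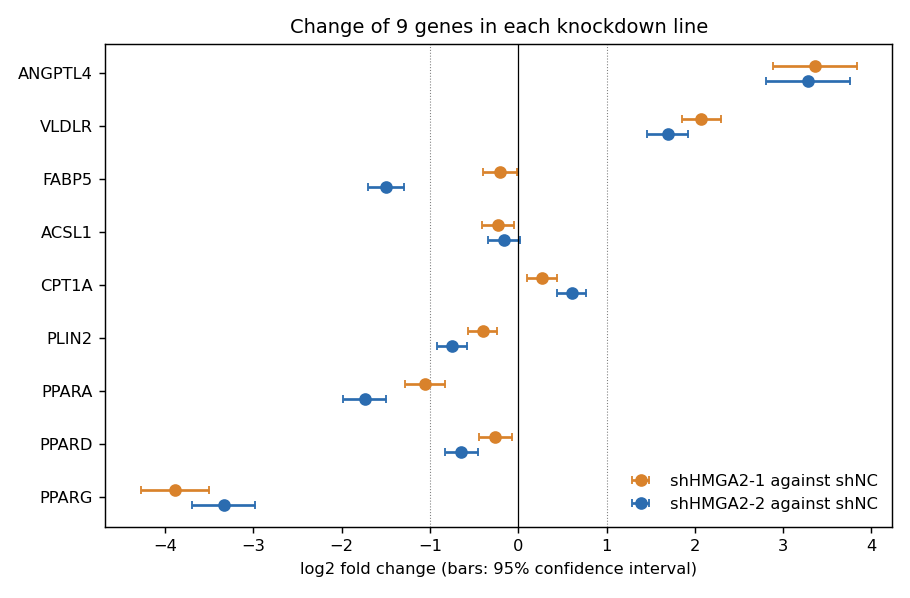
Log2 fold change against shNC of the 9 genes other than LPL in each knockdown line (points, with 95% confidence intervals computed from edgeR's F statistic). Dotted lines mark 2-fold. ANGPTL4 and VLDLR lie to the right of 2-fold and PPARA and PPARG to the left in both lines, and FABP5 is past 2-fold in shHMGA2-2 alone.

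The wider pathway was read from 7 lists of 157 genes in all, of which 123 were tested. In shHMGA2-1, 24 of the 123 rose and 37 fell, where 15.8% of all genes rose and 17.6% fell. In shHMGA2-2, 36 rose and 48 fell, where 29.5% of all genes rose and 29.2% fell. Those called at 2-fold or more were 14.6% and 31.7% of the 123, against 8.49% and 21.3% of all genes. A gene may stand in more than 1 list. The lists, too, were chosen with earlier results of these data known.

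Among 11 tested genes of LPL maturation and regulation, 3 rose and 3 fell in shHMGA2-1, and 4 rose and 3 fell in shHMGA2-2. The shares of all genes that rose and fell were 15.8% and 17.6% in shHMGA2-1, and 29.5% and 29.2% in shHMGA2-2. SORL1, an intracellular sorting receptor that binds LPL, had 31 counts in each shNC library, 24 and 49 in shHMGA2-1, and 737 and 738 in shHMGA2-2. It rose 22.4-fold in shHMGA2-2 (edgeR adjusted p = 3.72e-16), and in shHMGA2-1 its adjusted p was 0.725. SDC1, a cell surface proteoglycan to which LPL can bind, had 2854 and 2799, 2981 and 2587, and 1193 and 1260 counts in the 3 lines. It fell 2.44-fold in shHMGA2-2 (3.46e-13) and overlapped shNC in counts in shHMGA2-1 (0.31). FURIN, a protease that cleaves LPL and ANGPTL4, moved in opposite directions, 1.47-fold lower in shHMGA2-1 (7.14e-05) and 1.75-fold higher in shHMGA2-2 (4.08e-08).

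Among 17 lipoprotein and scavenger receptor genes, 2 rose and 6 fell in shHMGA2-1, and 9 rose and 6 fell in shHMGA2-2 (all genes, 15.8% and 17.6%, then 29.5% and 29.2%). LSR, a receptor for triglyceride-rich lipoproteins, had 38 and 30 counts in the control libraries, 349 and 288 in those of shHMGA2-1, and 517 and 660 in those of shHMGA2-2. Like VLDLR it rose in both lines, 8.84-fold (edgeR adjusted p = 3.21e-12) and 16.3-fold (1.18e-15). LRP1, a large endocytic receptor that takes up many ligands, went the other way and fell 1.70-fold (1.03e-07) and 3.99-fold (2.21e-15).

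Among 15 genes of fatty acid transport, binding and activation, 3 rose and 5 fell in shHMGA2-1, and 2 rose and 7 fell in shHMGA2-2. Of all genes, 15.8% rose and 17.6% fell in the former line, and 29.5% and 29.2% in the latter. Of the acyl-CoA synthetases related to ACSL1, ACSL5 fell 3.12-fold (edgeR adjusted p = 2.32e-12) and 2.51-fold (1.28e-11), and ACSL4, which prefers polyunsaturated fatty acids, 1.62-fold (8.73e-07) and 3.11-fold (1.29e-13). The fatty acid transport protein SLC27A1 fell 1.72-fold (0.00138, and 0.0851 with limma on log2(FPKM + 0.1)) and 3.05-fold (1.35e-07). MFSD2A, a transporter of lysophospholipids with polyunsaturated chains, rose 2.45-fold (2.73e-06) and 3.11-fold (1.25e-08). ACSL5, with 1414 and 1535 counts in shNC and 468 to 656 in the knockdown libraries, had the larger fold change of the pair with ACSL1 in both lines, a difference between genes that was not tested.

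All 28 genes of the carnitine shuttle and beta-oxidation were tested. In shHMGA2-1, 8 rose and 3 fell, none of them 2-fold, and in shHMGA2-2, 10 rose and 9 fell, 7 of these 19 by 2-fold or more. Against all genes (15.8% higher and 17.6% lower in shHMGA2-1, 29.5% and 29.2% in shHMGA2-2), the 25% of the list called at 2-fold in shHMGA2-2 was near the overall 21.3%. CPT2, which completes the step that CPT1A begins, had 129 and 112 counts in the control libraries, 198 and 181 in those of shHMGA2-1, and 333 and 352 in those of shHMGA2-2. It rose 1.49-fold (edgeR adjusted p = 0.00392, and 0.0773 without shNC replicate 2) and 2.69-fold (3.86e-09). ACADVL, the first dehydrogenase for very long chains, rose 1.32-fold (0.000204) and 2.61-fold (1.08e-13). EHHADH, a peroxisomal enzyme, fell 2.6-fold in shHMGA2-2 (8.96e-09) and had an adjusted p of 0.797 in shHMGA2-1. CPT1C, a relative of CPT1A, was at 0 to 2 counts in shNC and shHMGA2-1 and at 202 and 233 in shHMGA2-2.

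Among 25 lipid droplet and triglyceride turnover genes, 2 rose and 9 fell in shHMGA2-1, and 7 rose and 12 fell in shHMGA2-2, where all genes gave 15.8% and 17.6%, and 29.5% and 29.2%. All those called at 2-fold or more were lower, 5 and 6 genes, or 20% and 24% of the list against 8.49% and 21.3% of all genes. MGLL, which cleaves monoglycerides, had 1986 and 2059 counts in the control libraries, 557 and 413 in those of shHMGA2-1, and 159 and 114 in those of shHMGA2-2. It fell 4.41-fold (edgeR adjusted p = 4.49e-13) and 15.6-fold (9.34e-18). ABHD5, the activator of the triglyceride lipase ATGL, fell 2.06-fold (4.62e-10) and 3.56-fold (5.94e-15), and G0S2, the inhibitor of the same lipase, 8.12-fold (3.13e-13) and 3.03-fold (3.22e-10). The activator and the inhibitor thus both fell. GPAT3, an enzyme of triglyceride synthesis, fell 2.67-fold in shHMGA2-1 (7.64e-11) and rose 1.46-fold in shHMGA2-2 (1.63e-05). PLIN3, a relative of PLIN2, fell 1.37-fold (6.58e-05) and 1.56-fold (1.5e-07).

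Among 19 PPAR partners and coregulators, 2 rose and 10 fell in shHMGA2-1, and 1 rose and 11 fell in shHMGA2-2, beside 15.8% and 17.6%, and 29.5% and 29.2%, of all genes. PPARGC1A, a coactivator of PPARs and of mitochondrial genes, had 153 and 161 counts in the control libraries, 50 and 42 in those of shHMGA2-1, and 23 and 21 in those of shHMGA2-2. It fell 3.60-fold (edgeR adjusted p = 1.47e-07) and 7.51-fold (1.36e-10). NRIP1, a corepressor, fell 1.74-fold (3.38e-06) and 3.84-fold (9.6e-13), and NCOA6, a coactivator, 2.24-fold (4.47e-11) and 2.00-fold (1.2e-10). HDAC3, a corepressor enzyme, had 1597 to 1810 counts in all 6 libraries, with adjusted p-values of 0.992 and 0.718. Coactivators and corepressors were thus both among the genes that fell.

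Among 21 other known PPAR target genes, 7 rose and 5 fell in shHMGA2-1, and 7 rose and 5 fell in shHMGA2-2. The shares of all genes were 15.8% and 17.6%, and 29.5% and 29.2%, so that at any fold the list was called about as often as all genes in shHMGA2-2. Called at 2-fold or more were 19% of the list in shHMGA2-1 and 42.9% in shHMGA2-2, against 8.49% and 21.3% of all genes. PDK4, which restrains glucose oxidation, had 13 and 22 counts in the control libraries, 37 and 39 in those of shHMGA2-1, and 106 and 129 in those of shHMGA2-2. The lines did not overlap. It rose 6.31-fold in shHMGA2-2 (edgeR adjusted p = 1.32e-08) and 2.05-fold in shHMGA2-1 (0.0168), and the latter call was lost without shNC replicate 1 (0.202), without shHMGA2-1 replicate 2 (0.0542) and with DESeq2 (0.0549). Of the genes given above that are also in this list, MGLL, G0S2 and SLC27A1 fell and CPT2 and ACADVL rose in both lines.

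**Figure D5:**
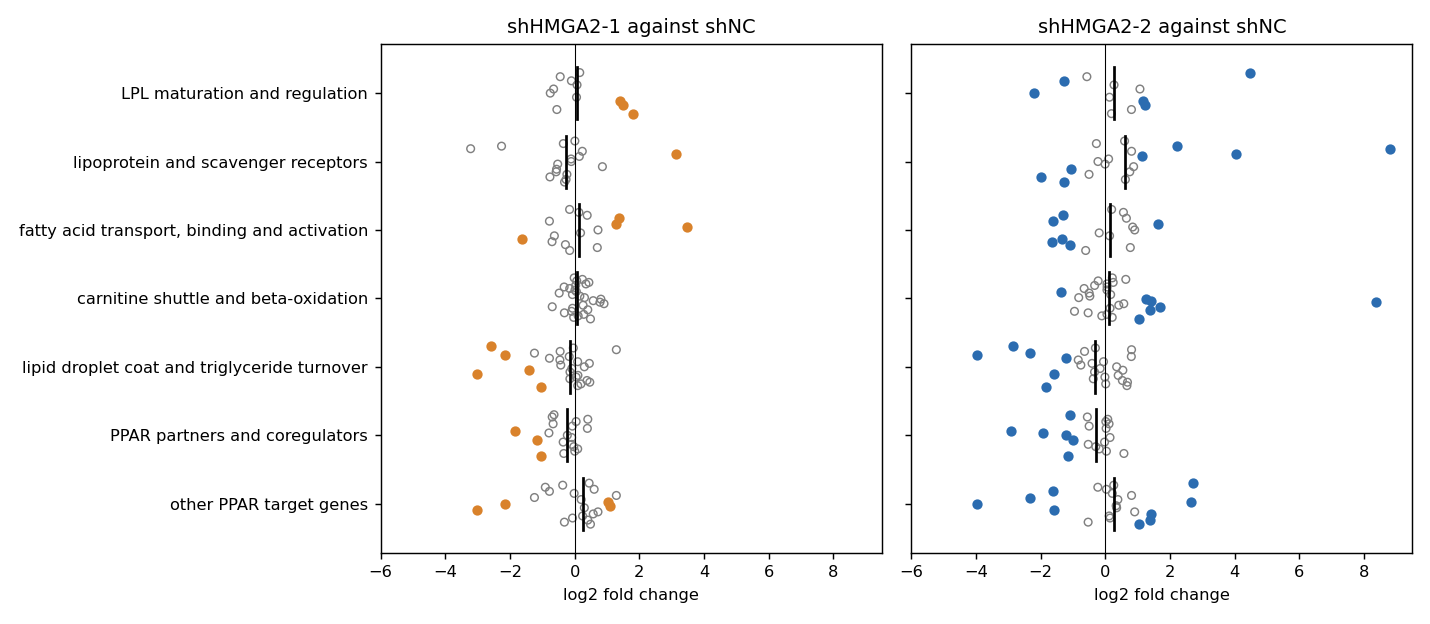
Log2 fold change against shNC of each tested gene of the 7 pathway lists, in shHMGA2-1 (left) and shHMGA2-2 (right). Filled points passed edgeR's test (adjusted p under 0.05) with at least a 2-fold change, open points did not, and black bars are list medians. In shHMGA2-2, filled points lie on both sides of 0 in 5 of the lists, and in both lines they lie below 0 alone in the lipid droplet list and the list of PPAR partners.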

How the data were processed

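RNA was sequenced in 6 MDA-MB-231 libraries. Groups follow the sample titles; the library names read WT for the shNC samples. The authors deposited raw counts per gene and FPKM values, made with HISAT2 2.2.1 and HTSeq 0.6.1 on GRCh38.p13 according to the submitters' processing notes. The deposited FPKM values were recomputed from counts, exonic size and library total for 100% of values (within 0.006). The strand setting is not given in the sources used here, so reads of overlapping antisense genes cannot be told apart.

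Counts were tested in R 4.3.3 with edgeR 4.0.16: TMM scaling (factors 0.958 to 1.05), filterByExpr (16110 genes), the quasi-likelihood test on 3 groups or on knockdown against shNC, and Benjamini-Hochberg adjustment. A called gene had an adjusted p under 0.05. The SE of a log2 fold change was its absolute value over the square root of edgeR's F statistic. The 95% confidence intervals were computed from this SE with a t quantile. Where a library was left out, its lone partner was assumed to vary like the other groups. DESeq2 1.42.0, limma 3.58.1 on log2(FPKM + 1 or 0.1), other filters, upper quartile scaling, the replicate number as a block and left-out libraries were alternatives. The scripts were tested on simulated data.

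The 10 genes, the pathway and marker lists and the tests were chosen with earlier results of these data known. Besides the 10 genes and HMGA2, named genes were up to 4 per pathway list with the largest called change (mean of at least 50 counts), the 2 per list with the highest FPKM, the 5 genes nearest LPL in pattern, and protein-coding neighbours of LPL and VLDLR within 500 kb. Not all of them are described, and some are not reported here. Promoter windows came from RefSeq.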

Additional observations from a re-analysis of the deposited data

Results flagged for a closer look

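For 7 of the 10 genes the change against shNC differed between the knockdown lines, by edgeR's quasi-likelihood test of shHMGA2-2 against shHMGA2-1 (Benjamini-Hochberg over all genes). Of all genes, 24.5% were higher and 25.7% lower in shHMGA2-2. LPL was higher in shHMGA2-2 by 1.55 on the log2 scale and CPT1A by 0.34 (edgeR adjusted p = 0.000212 and 0.000924). Lower in shHMGA2-2 were FABP5 (log2 difference -1.29, adjusted p = 7.21e-11), PPARA (-0.68, 6.25e-05), PPARD (-0.39, 0.000983), VLDLR (-0.38, 0.00168) and PLIN2 (-0.35, 0.00101). The remaining HMGA2 level was also lower in shHMGA2-2, by a log2 difference of -1.01 (3.07e-09), and its part in these differences was not tested. The lines differ in shRNA and in clone, which cannot be told apart. Groups of 2 libraries were too small to look for a sample far from the rest.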

How the results depend on the processing

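Over the 10 genes, 436 of 476 values recomputed under alternatives stayed called or stayed not called, 35 lost the call and 5 gained it. Over the other named genes, 1504 of 1617 values stayed so, with 82 lost and 31 gained. In both sets, 0 values that were called in either fit turned direction. Turns of direction between 2 values that were both not called were not counted. For shHMGA2-1 against shNC, leaving out 1 library gave 3283 to 5795 called genes (5388 with all) and 5 to 8 of the 9 genes (8). For the single knockdown group it gave 4 to 822 genes (848), 0 to 4 of the 9 (4) and 0 to 17 pathway genes (17). In that comparison DESeq2 called 2268 genes and 32 pathway genes. Same-numbered libraries shared little deviation across genes, with r = -0.022, 0.002 and -0.1 in the 3 pairs of lines. These values cannot settle whether same-numbered libraries were prepared together. With the replicate block, the single group gave 152 genes and 5 pathway genes, and the members called were 6 in shHMGA2-1, 8 in shHMGA2-2 and 3 in the single group. Upper quartile scaling moved the median log2 fold change of all genes by 0.115 in shHMGA2-2, and the changes given here are on TMM scaling. The causes were not tested, except that leaving out a library leaves fewer samples. With 0 counts in shNC, the fold of LPL could be given only against a floor set by depth.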
